A study of Danio rerio with 5 samples.

Results

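The thick filament genes described here were 5 rows of the deposited tables, chosen by gene ID: myl7 (ENSDARG00000019096), cmlc1 (ENSDARG00000032976), vmhc (ENSDARG00000079782) and 2 titin rows (ENSDARG00000000563 and ENSDARG00000028213), out of 17997 gene IDs. All 5 were measured on every plate and passed the filter on low values. The names myl7, cmlc1, vmhc and titin came with the choice of rows. The name table in use here gave MYH7 for the vmhc row and TTN for both titin rows, and which of the neighbouring zebrafish heavy chain and titin copies each row stands for is not given in the sources used here. Reads that fit more than 1 near-identical copy could have been split between such rows, so vmhc and the titins carry that uncertainty throughout.

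Thick filaments are bundles of myosin, the motor that pulls on actin to shorten the sarcomere. Each myosin head carries a heavy chain with the motor and a pair of light chains. myl7 encodes the regulatory light chain and cmlc1 the essential light chain of the zebrafish heart, while vmhc is the heavy chain of the ventricle. Titin is a giant elastic protein that runs from the Z-disc to the M-band, holds the thick filament in register and sets the passive stiffness of the sarcomere. Heart muscle cells next to a wound take their sarcomeres partly apart and later rebuild them, which is why these genes are read as a measure of the contractile state of border zone cardiomyocytes.

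The samples were cells from the cardiac ventricle of adult zebrafish carrying TgBAC(nppa:mCitrine) on a TL background, a line in which mCitrine is made under control of nppa, a natriuretic peptide gene active beside the wound. All fish had been cryo-injured at the tip of the ventricle, and no uninjured sample was analysed here, so every comparison is between times after injury. Cells were sorted on mCitrine into plates of 384 wells, 1 cell a well, at 1 day post cryo-injury (dpci; 1 plate), 3 dpci (1 plate) and 7 dpci (3 plates), and mRNA molecules were counted with unique molecular identifiers (UMIs) by SORT-seq, which tags the 3′ end of a transcript. The shared protocol text of the labels also names a myl7:GFP sort, whereas the series' design names the nppa reporter alone. The study gives several hearts for each time point, but how these hearts fall on the plates is not given in the sources used here, so p-values measure only the spread between plates.

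A total of 1175 wells held at least 500 UMIs and were taken as cells, of which 283 came from the 1 dpci plate, 268 from the 3 dpci plate and 169, 230 and 225 from plates 1, 2 and 3 of 7 dpci. Their median depth was 2700 UMIs at 1 dpci, 2178 at 3 dpci and 1023, 2274 and 2203 at 7 dpci, so plate 1 of 7 dpci was the shallowest. At least 3 of 13 cardiomyocyte marker IDs outside the 5 genes were detected in 99.4% to 100% of the cells of each plate. This is a loose check, since 100% of the 1 dpci cells passed it, those rich in markers of other cell types included. Markers of other cell types made up 0.667% of UMIs at 1 dpci and 0.391% at 3 dpci against 0.0446% to 0.0704% on the 7 dpci plates, and 49 of the 53 cells in which they reached 1% lay on the 2 earlier plates. In those 53 cells myl7 took 0.825% of UMIs, cmlc1 0.287% and vmhc 0.131%, against 6.20%, 3.29% and 1.09% in the other 1122. Fewer cardiomyocytes and less of a transcript in each cardiomyocyte cannot be told apart in sums over a plate, so the changes between times are also given without those cells. The cut at 1% need not catch every cell of another type. The deepest cell at 3 dpci held 20 myl7 UMIs of 21201, and that of plate 3 of 7 dpci held 84 of 23757. Markers of other types stayed under the cut in both, at 0.48% and 0.86%.

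Relative to most other genes, the light chains were far higher at 7 dpci than earlier, vmhc differed less, and the titins did not follow them. UMIs were summed over the cells of a plate and expressed as CPM, counts relative to the total of the plate, after scaling by the trimmed mean of M-values (TMM), which sets most genes to no change. For myl7 the plates held 24767 CPM at 1 dpci, 36033 CPM at 3 dpci and 101347, 102889 and 90102 CPM at 7 dpci. All 3 plates of 7 dpci lay above both earlier plates, and they differed little among themselves (98113 ± 6980 CPM, SD, n = 3). This was 3.96-fold the level of 1 dpci and 2.72-fold that of 3 dpci. Of the 5624 genes tested, 25.5% were higher on all 3 plates of 7 dpci than at 1 dpci and 37.2% lower. Against 3 dpci these shares were 23.2% and 33.6%, and the share above both earlier plates at once was not computed.

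cmlc1 was at 12633 CPM at 1 dpci, 19593 CPM at 3 dpci and 38773, 57485 and 51331 CPM at 7 dpci (49196 ± 9537 CPM, SD, n = 3). Again no 7 dpci plate overlapped the earlier plates, an order to be read beside those shares of all genes. Plate 1 was clearly the lowest of the 3. The folds were 3.89 against 1 dpci and 2.51 against 3 dpci.

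vmhc, the heavy chain, was at 6580 CPM at 1 dpci, 7350 CPM at 3 dpci and 9153, 13815 and 15685 CPM at 7 dpci (12885 ± 3364 CPM, SD, n = 3). On this scale all 3 plates were again higher, by 1.96-fold and 1.75-fold on average, though with spike-in scaling the sign turned. They spread much more widely than for myl7 and the lowest of them, plate 1, was near the 3 dpci plate. As a part of plain cell totals, plate 1 was not above the earlier plates. It held 2276 vmhc UMIs of 282359, against 10573 of 1238176 at 1 dpci and 6979 of 783623 at 3 dpci.

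The titins overlapped between times. Titin ENSDARG00000000563 was at 734 CPM at 1 dpci, 457 CPM at 3 dpci and 881, 479 and 377 CPM at 7 dpci (579 ± 266 CPM, SD, n = 3). Titin ENSDARG00000028213 was at 1384 CPM, 767 CPM and 1512, 688 and 871 CPM in the same order (1024 ± 433 CPM, SD, n = 3). For both rows plate 1 of 7 dpci was above the 1 dpci plate and the other 2 plates of 7 dpci were below it.

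**Figure D1:**
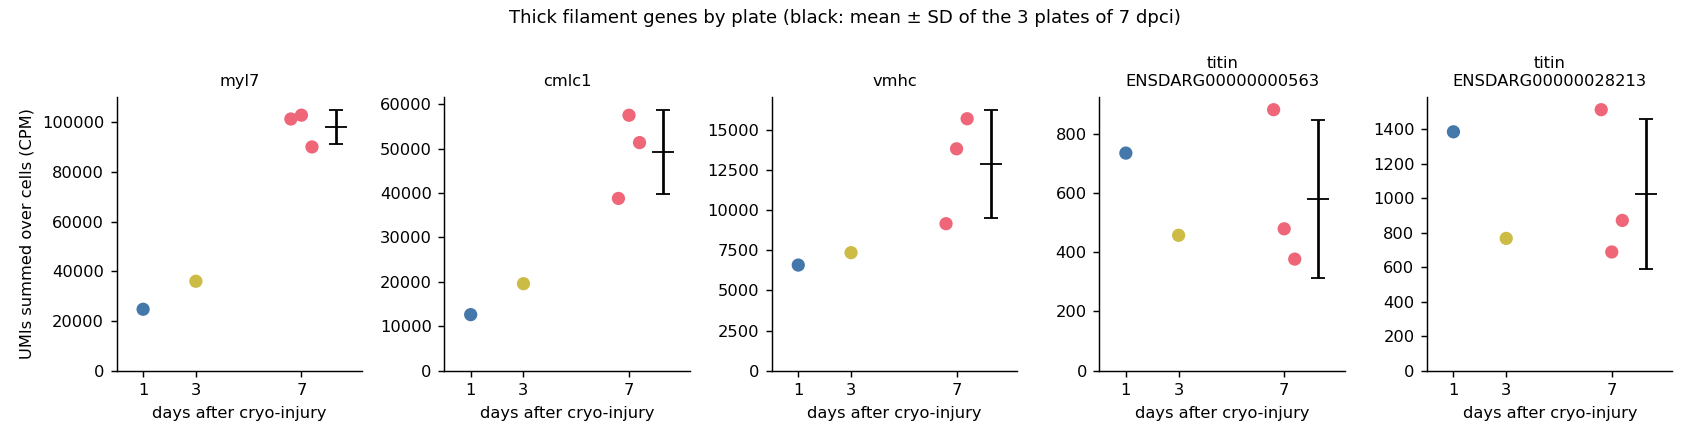
Level of each of the 5 genes in CPM (TMM-scaled UMIs summed over the cells of a plate) against days after cryo-injury, 1 point for each plate, with the mean and SD of the 3 plates of 7 dpci in black beside them and the 7 dpci points set apart sideways for legibility. The 7 dpci plates of myl7, cmlc1 and vmhc lie above both earlier plates, whereas those of the titins spread across them. Of all genes tested, 25.5% were higher on all 3 plates of 7 dpci than at 1 dpci and 37.2% lower. Against 3 dpci the shares were 23.2% and 33.6%. With spike-in scaling vmhc turned in both comparisons and cmlc1 against 3 dpci, and the titin values rest partly on single deep cells. On plain totals vmhc on plate 1 of 7 dpci was not above the earlier plates.

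Between 7 and 1 dpci, 2 of the 5 genes were called, both higher, where 7.49% of the 5624 genes tested were called in either direction with 2.79% higher and 4.69% lower. myl7 rose by a log2 fold change of 1.99 ± 0.20 (SE derived from the F statistic of the test, adjusted p = 0.00311, edgeR's quasi-likelihood test, Benjamini-Hochberg over all genes, higher on 3 of 3 plates). cmlc1 rose by 1.96 ± 0.27 (edgeR adjusted p = 0.00587, 3 of 3 plates). The vmhc change of 0.97 ± 0.31 missed the threshold of 0.05 (edgeR adjusted p = 0.102), although CPM was higher on 3 of 3 plates, as it was for 25.5% of all genes tested (37.2% were lower on all 3), and its sign turned with spike-in scaling (-0.72). The titins had log2 fold changes of -0.35 ± 0.46 for ENSDARG00000000563 (edgeR adjusted p = 0.746) and -0.44 ± 0.41 for ENSDARG00000028213 (edgeR adjusted p = 0.629), higher on 1 of 3 plates each.

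Between 7 and 3 dpci the same 2 light chains were called, where 1.87% of genes were called at all, 0.64% higher and 1.23% lower. The log2 fold change was 1.45 ± 0.19 for myl7 (edgeR adjusted p = 0.0148) and 1.33 ± 0.26 for cmlc1 (edgeR adjusted p = 0.0439), each higher on 3 of 3 plates, although cmlc1 turned to -0.075 with spike-in scaling. vmhc had 0.81 ± 0.31 (edgeR adjusted p = 0.250, also 3 of 3 plates, as for 23.2% of all genes, with 33.6% lower on all 3), turning to -0.61 with spike-in scaling. The titins had 0.33 ± 0.48 for ENSDARG00000000563 (edgeR adjusted p = 0.860) and 0.41 ± 0.43 for ENSDARG00000028213 (edgeR adjusted p = 0.791). Both comparisons use the same 3 plates of 7 dpci, so their agreement is not independent, and each earlier time point is a lone plate whose spread is taken from the 7 dpci plates.

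The size of the light chain rise depended on how plates were scaled. Scaled to plain library totals, which the abundant light chains themselves fill, the log2 fold change against 1 dpci was 1.27 for myl7 and 1.23 for cmlc1, both still called (edgeR adjusted p = 0.00954 and 0.0154), and 0.24 for vmhc. Against 3 dpci it was 0.84 for myl7 and 0.71 for cmlc1, and both calls were lost (edgeR adjusted p = 0.0618 and 0.109). Scaled to the ERCC spike-in RNA of the same wells, myl7 had a log2 fold change of 0.39 ± 0.56 against 1 dpci (edgeR adjusted p = 0.588) and cmlc1 0.29 ± 0.48 (edgeR adjusted p = 0.643). Spike-in UMIs themselves varied between plates, at a median of 1721 a cell at 1 dpci, 1301 at 3 dpci and 956, 3101 and 2575 at 7 dpci. Spike-in scaling moved the median of all genes to -1.78 against 1 dpci, from -0.13 under TMM and -0.85 under plain library totals. Relative to the median of all genes, the myl7 change against 1 dpci was 2.11 under TMM, 2.12 under library totals and 2.17 under spike-ins, and that of vmhc was 1.096, 1.08 and 1.06. Scaling moves all genes of a plate alike, and subtracting the median takes that shift out again. These values are therefore alike by construction and are no separate support for the rise. Without plate 2 none of the genes tested was called in either comparison by edgeR, although 724 and 435 genes had an unadjusted p under 0.05. The log2 fold change of myl7 against 1 dpci was then 2.04 ± 0.21 (edgeR adjusted p = 0.409) and that of cmlc1 1.93 ± 0.34 (edgeR adjusted p = 0.409), hence the sizes stayed while the calls, like those of all other genes, were lost.

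Titin ENSDARG00000028213 was called lower against 1 dpci when cells were thinned with every plate kept (-0.97). In the unthinned sums, 47.8% of its 1 dpci UMIs lay in 1 cell. The calls of vmhc and of this titin also changed when plate 1 of 7 dpci, the shallow plate, was left out. Without it vmhc rose by 1.27 ± 0.14 against 1 dpci (edgeR adjusted p = 5.16e-06) and by 1.06 ± 0.14 against 3 dpci (edgeR adjusted p = 6.61e-05). Titin ENSDARG00000028213 then fell by 0.72 on the log2 scale against 1 dpci (SE 0.21, edgeR adjusted p = 0.0215) and titin ENSDARG00000000563 had -0.67 ± 0.25 (edgeR adjusted p = 0.0701). This setting called 1324 genes against 1 dpci and 790 against 3 dpci. Without the 53 cells rich in markers of other cell types, myl7 kept its call in both comparisons at 1.53 ± 0.19 and 1.15 ± 0.19 (edgeR adjusted p = 0.0100 and 0.0453). cmlc1 kept its call against 1 dpci at 1.46 ± 0.24 (edgeR adjusted p = 0.0243) and lost it against 3 dpci at 1.03 ± 0.23 (edgeR adjusted p = 0.103). vmhc was then at 0.48 ± 0.28 against 1 dpci and 0.49 ± 0.28 against 3 dpci, a smaller difference than with those cells, and was not called. Titin ENSDARG00000000563 was at -0.86 and titin ENSDARG00000028213 at -0.93 against 1 dpci, and at 0.017 and 0.095 against 3 dpci, none of them called.

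**Figure D2:**
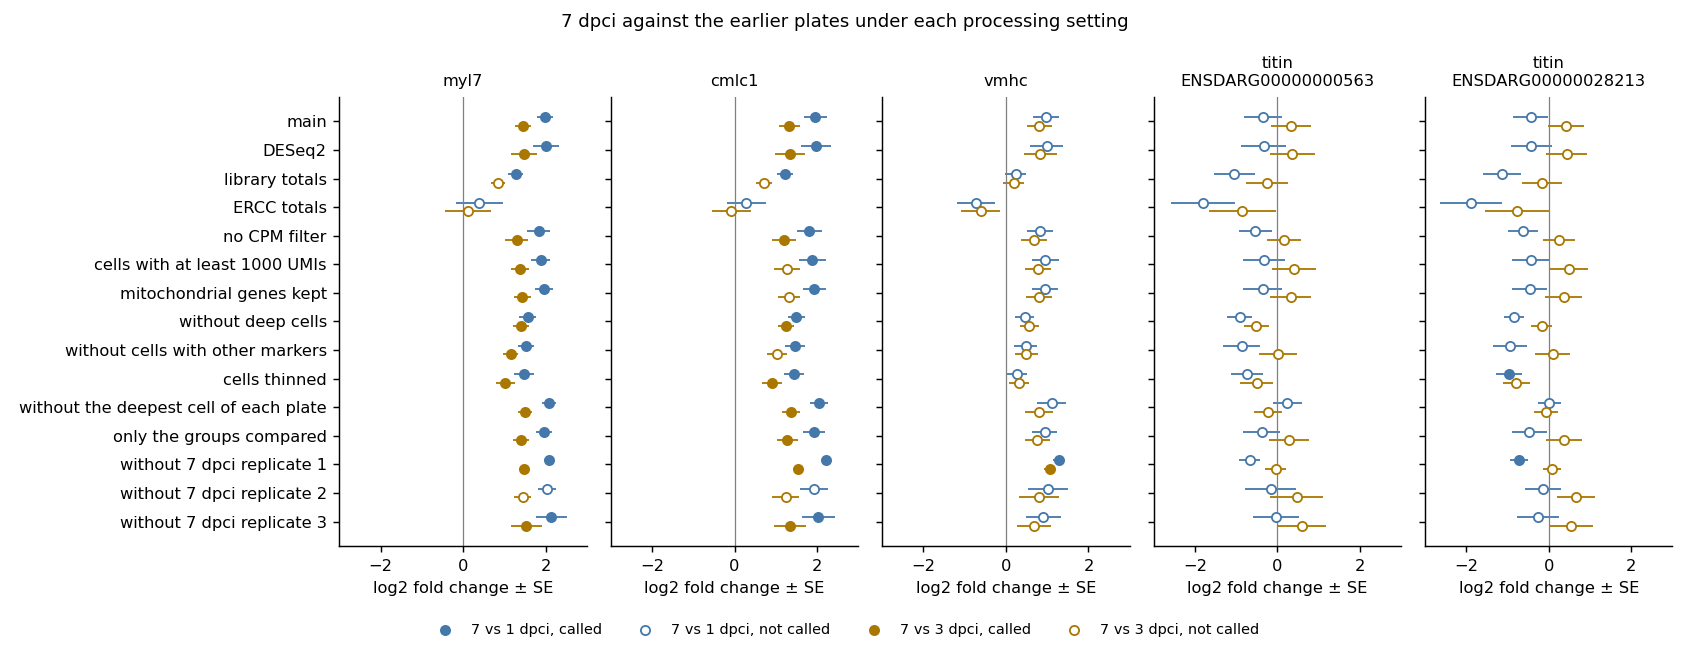
Log2 fold change (± SE, horizontal axis) of each of the 5 genes at 7 dpci against 1 dpci (blue) and 3 dpci (ochre) under each way of processing listed on the vertical axis, with filled points where the adjusted p was under 0.05. myl7 and cmlc1 stay above 0 against 1 dpci in every line and lose that call with ERCC totals and without replicate 2, vmhc falls below 0 with ERCC totals only, and the titins cross 0 between lines.

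The 3 dpci and 1 dpci plates are 1 a side, so they were compared mainly by ratios. myl7 was at 1.45 times its 1 dpci level at 3 dpci (95% interval 1.43 to 1.48, exact conditional binomial, counting error only) and cmlc1 at 1.55 times (1.52 to 1.58), where the median over 5616 genes was 0.952 and 46.5% of genes had a ratio above 1. vmhc was at 1.12 times (1.08 to 1.15), but at 0.969 times, with an interval that includes 1, when every cell was thinned to 500 UMIs, 0.993 times (0.963 to 1.02) without the cells rich in other markers and 0.958 times (0.924 to 0.993) without cells deeper than 3 times the median. Titin ENSDARG00000000563 was at 0.622 times (0.556 to 0.695) and titin ENSDARG00000028213 at 0.554 times (0.509 to 0.603). In an edgeR contrast added after these values were seen, which takes the spread of both sides from the 7 dpci plates, none of the 5624 genes was called (0.0%), while 137 had an unadjusted p under 0.05. myl7 had a log2 fold change of 0.54 ± 0.21 there and cmlc1 0.63 ± 0.29, with 0.16 ± 0.36 for vmhc, -0.68 ± 0.57 for titin ENSDARG00000000563 and -0.85 ± 0.52 for titin ENSDARG00000028213. The light chain ratios stayed above 1 in all of the cell selections run, whereas the titin ratios turned with 1 cell, as follows.

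A single cell carried much of the titin signal on each of 2 plates. At 1 dpci the deepest cell, with 36558 UMIs or 13.5 times the plate's median, held 652 of the 1180 UMIs of titin ENSDARG00000000563 (55.3%) and 1064 of the 2224 UMIs of titin ENSDARG00000028213 (47.8%). On plate 1 of 7 dpci the deepest cell, with 27535 UMIs or 26.9 times the median, held 155 of 219 (70.7%) and 236 of 376 (62.7%). Both cells also held 9.89% and 20.5% of their plates' vmhc UMIs. Their part of the light chain signal was smaller, with 2.37% and 2.35% of myl7 and 3.29% and 4.64% of cmlc1. On the other 3 plates the cell with the most titin held between 8.29% and 18.1% of it.

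Without the deepest cell of each plate, an alternative chosen after these values were seen, the 3 dpci level of titin ENSDARG00000000563 was 1.39 times that of 1 dpci (95% interval 1.22 to 1.58) and that of titin ENSDARG00000028213 was 1.06 times (0.964 to 1.16). The log2 fold changes between 7 and 1 dpci became 0.25 ± 0.35 and 0.02 ± 0.28 (edgeR adjusted p = 0.727 and 0.984). Without all cells deeper than 3 times the median they were instead -0.91 ± 0.30 and -0.84 ± 0.24, neither called. The 3 dpci levels were then 0.78 times (0.67 to 0.92) and 0.65 times (0.58 to 0.73) those of 1 dpci. Against 1 dpci both titins were below 0 under every way of processing other than leaving out the deepest cells. The direction of summed titin thus depended on which deep cells were kept. The light chains stayed at 2.08 for myl7 and 2.05 for cmlc1 against 1 dpci without the deepest cells. myl7 was spread widely, needing 43 to 62 cells of a plate for 50% of its UMIs, and vmhc needed 9 to 36.

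Ratios of 2 genes within a plate do not depend on how plates are scaled. For 100 myl7 UMIs, the plates held 51.0 cmlc1 UMIs at 1 dpci, 54.4 at 3 dpci and 38.3, 55.9 and 57.0 at 7 dpci (50.4 ± 10.5, SD, n = 3). The 2 light chains thus kept a similar proportion on 4 plates, with plate 1 of 7 dpci below the rest. For vmhc the ratio was 26.6 at 1 dpci, 20.4 at 3 dpci and 9.03, 13.4 and 17.4 at 7 dpci (13.3 ± 4.19, SD, n = 3). All 3 plates of 7 dpci lay below both earlier plates, so there was less heavy chain for each light chain transcript even where the CPM of vmhc was higher.

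The titin ratios showed the same order. Titin ENSDARG00000000563 was at 2.97 UMIs for 100 of myl7 at 1 dpci, 1.27 at 3 dpci and 0.869, 0.465 and 0.418 at 7 dpci (0.584 ± 0.248, SD, n = 3). Titin ENSDARG00000028213 was at 5.59, 2.13 and 1.49, 0.669 and 0.967 (1.04 ± 0.417, SD, n = 3). Without the deepest cells the values for ENSDARG00000000563 were 1.36, 1.27 and 0.260, 0.469 and 0.419, and those for ENSDARG00000028213 were 2.99, 2.13 and 0.569, 0.675 and 0.918, hence 7 dpci again lay below both earlier plates. That order of vmhc and of both titins relative to myl7 held in every selection of cells run, thinning to 500 UMIs included. myl7 itself lay above the median change of all genes by 2.11 against 1 dpci and 1.54 against 3 dpci (log2, TMM). Any gene that rose less than myl7 falls on this ratio, and the share of all genes with that order was not computed. The order is therefore no trait shown for these rows alone. It is given as a description, with no test run: an exact permutation test of 3 plates against 1 cannot reach p = 0.05. The proportion of the titins to each other had no order in time, with 53.1 UMIs of ENSDARG00000000563 for 100 of ENSDARG00000028213 at 1 dpci, 59.6 at 3 dpci and 58.2, 69.6 and 43.3 at 7 dpci, where the lowest and the highest value both fell.

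**Figure D3:**
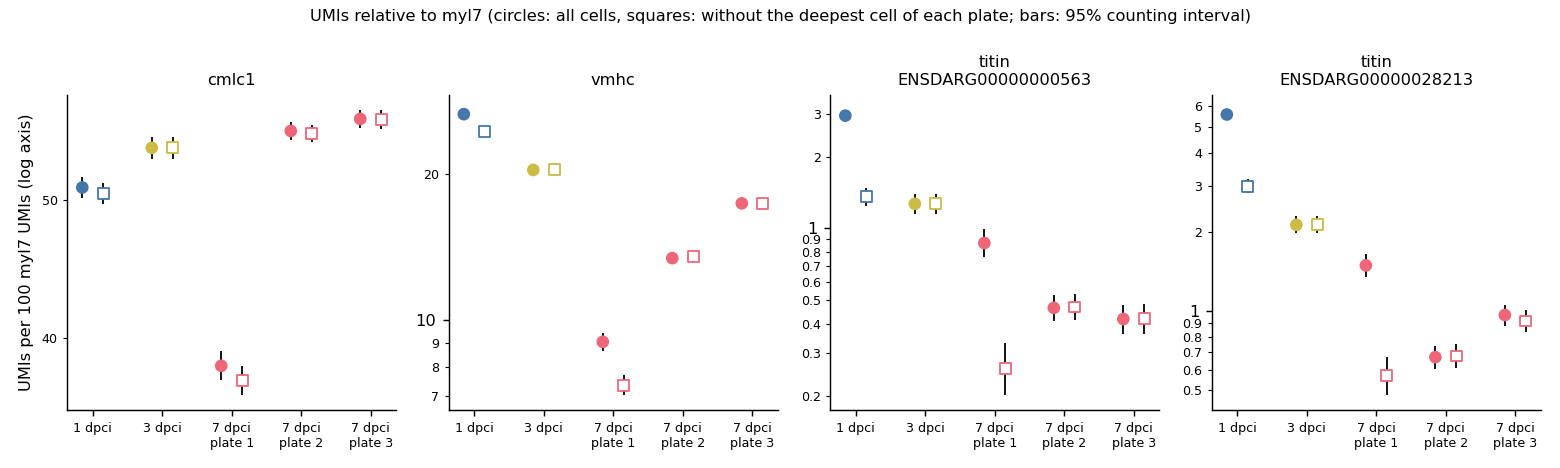
UMIs of cmlc1, vmhc and the titins for 100 UMIs of myl7 (log axis) on each plate, as circles for all cells and squares without the deepest cell of each plate, with 95% counting intervals. The 3 plates of 7 dpci lie below both earlier plates for vmhc and both titins but not for cmlc1. Any gene that rose less than myl7 falls on this scale.

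In single cells, every one of the 1175 cells held at least 1 UMI of myl7 and of cmlc1. The median share of a cell's UMIs taken by myl7 was 4.61% at 1 dpci, 5.40% at 3 dpci and 10.02%, 8.15% and 7.89% at 7 dpci. The median cmlc1 share was 2.20%, 2.82% and 4.01%, 4.23% and 4.36% in the same order. At 7 dpci even the cells at the 5th percentile had 4.24% to 4.42% of their UMIs from myl7, against 0.538% at 1 dpci and 0.409% at 3 dpci. The earlier plates held a tail of cells low in light chains, which was largely missing at 7 dpci. Without the cells rich in markers of other types the 5th percentile of myl7 was 1.62% at 1 dpci, 2.03% at 3 dpci and 4.72%, 4.55% and 4.27% at 7 dpci.

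The median vmhc share, in contrast, was much alike on 4 plates at 0.751% (1 dpci), 0.696% (3 dpci), 0.642% and 0.693% (plates 2 and 3 of 7 dpci), with 0.196% on plate 1 of 7 dpci. A vmhc UMI was found in 97.5% of cells at 1 dpci, 94.8% at 3 dpci and 76.3%, 96.1% and 91.6% at 7 dpci. Thinned to 500 UMIs a cell, to equalise depth, these shares were 87.3%, 83.6% and 61.5%, 80.4% and 78.2%. The thinned share was lower on each 7 dpci plate than on the earlier plates, whereas the TMM-scaled CPM of vmhc was higher. The scales differ, since thinning sets every cell to the same plain total. With plain library totals the log2 fold change of vmhc was 0.24 against 1 dpci and 0.19 against 3 dpci, neither called. How large a share of all genes had that order was not computed.

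Titin UMIs were found in fewer cells than those of the myosin genes. Titin ENSDARG00000000563 was detected in 41.7% of cells at 1 dpci, 38.1% at 3 dpci and 11.8%, 22.6% and 26.2% at 7 dpci, and titin ENSDARG00000028213 in 63.6%, 51.5% and 23.1%, 36.09% and 34.7%. Thinned to 500 UMIs, ENSDARG00000000563 was found in 17.3% of cells at 1 dpci (95% exact binomial interval 13.1% to 22.2%), 12.7% at 3 dpci (8.95% to 17.3%) and 6.51%, 11.3% and 9.78% at 7 dpci (9.20% ± 2.45, SD, n = 3). ENSDARG00000028213 was found in 27.6% (22.4% to 33.2%), 22.4% (17.5% to 27.9%) and 11.2%, 15.2% and 13.3% (13.3% ± 1.99, SD, n = 3). Every 7 dpci plate was below both earlier plates for both titins, and this held without the cells rich in markers of other types. The share of all genes with that order was not computed, so it is no trait shown for the titins alone. Before thinning, a cell held a median of 838 genes at 1 dpci, 711.5 at 3 dpci and 301, 507.5 and 467 at 7 dpci. For reference, titin ENSDARG00000000563 took 0.0036% and titin ENSDARG00000028213 0.0135% of the UMIs of the 53 cells rich in other markers, against 0.0709% and 0.128% in the other 1122.

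**Figure D4:**
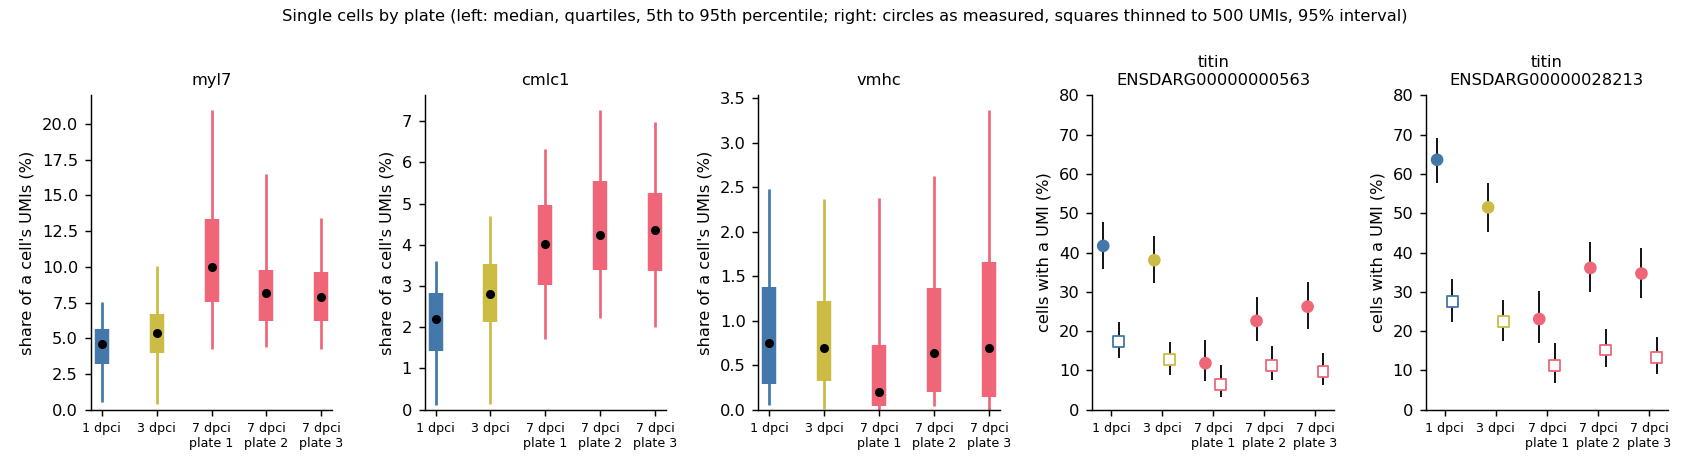
Left, share of a cell's UMIs (%) taken by myl7, cmlc1 and vmhc on each plate, with the median as a dot, the quartiles as a box and the 5th to 95th percentile as a line. Right, share of cells (%) with a UMI of each titin as measured (circles) and after thinning to 500 UMIs (squares), with 95% exact intervals. Light chain shares are highest on the 7 dpci plates and thinned titin detection is lowest there. The share of all genes with lower thinned detection there was not computed.

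Across the cells of a plate the 2 light chains went together. Pearson's r of log2(counts per 10000 + 1) between myl7 and cmlc1 was 0.89 at 1 dpci (283 cells), 0.90 at 3 dpci (268 cells) and 0.70, 0.53 and 0.69 at 7 dpci (169, 230 and 225 cells). These values describe cells that share a plate, a library and a total, and are given without a test. The titins also went together, at 0.43 and 0.47 on the earlier plates and 0.50, 0.38 and 0.44 at 7 dpci, and at 0.25 to 0.33 after thinning. vmhc went with titin ENSDARG00000028213 at 0.33 and 0.37, then 0.44, 0.33 and 0.44, and after thinning at 0.19, 0.16, 0.26, 0.15 and 0.15.

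myl7 and vmhc, by contrast, were positively related at 1 dpci (0.52) and 3 dpci (0.35) and weakly negatively at 7 dpci (-0.27, -0.24 and -0.15). The early positive values came close to 0 once deep cells and cells rich in other markers were left out together. Without the cells rich in markers of other types and those deeper than 3 times their plate's median, a subset chosen after seeing the data, r was 0.01 at 1 dpci (230 cells), -0.07 at 3 dpci (236 cells) and -0.36, -0.23 and -0.22 at 7 dpci (153, 205 and 205 cells). In that subset myl7 and cmlc1 stayed at 0.52 to 0.69 and the titins at 0.28 to 0.45. Depth moved with these measures. Between the myl7 value and the log2 depth of a cell r was -0.26 to -0.46, whereas that of the titins was 0.11 to 0.36. For vmhc it was -0.09 at 1 dpci and 0.08 at 3 dpci, then 0.24, 0.20 and 0.22 at 7 dpci. On those 7 dpci plates myl7 had -0.42, -0.30 and -0.26. The part of depth in the relations was not tested beyond thinning.

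**Figure D5:**
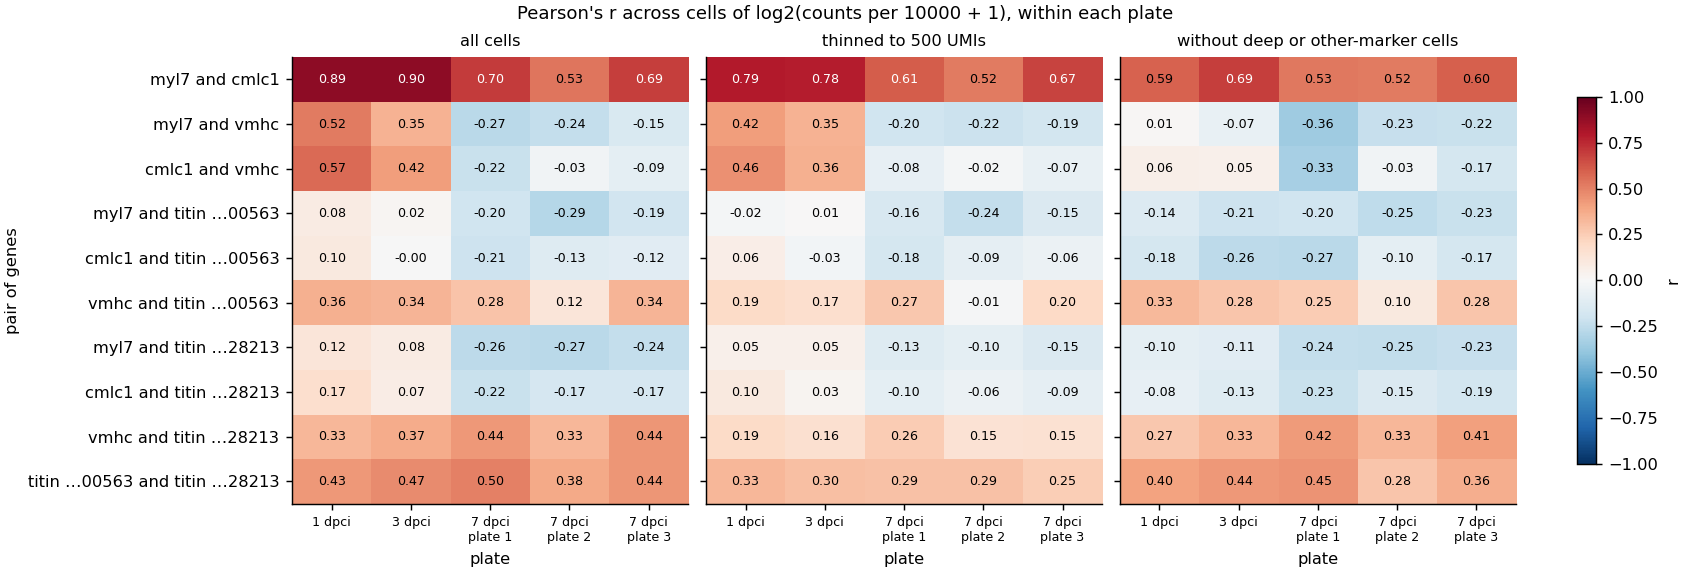
Pearson's r across the cells of each plate for every pair of the 5 genes, coloured from -1 (blue) to 1 (red), for all cells, for cells thinned to 500 UMIs and without deep cells or cells rich in other markers. The pair myl7 and cmlc1 and the pair of titins are positive in all columns, while myl7 and vmhc are positive at 1 and 3 dpci in the first 2 panels only.

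The genes most like each member across cells were ranked by mean r over the 5 plates. The ranking covered 695 genes detected in at least 10% of the cells of every plate. The leading genes, named below, differed between the light chains and the rest. For myl7 they were actc1a, a muscle actin, at 0.67, GAPDH, a glycolytic enzyme, at 0.60 and AK1, an adenylate kinase, at 0.56. For cmlc1 the same genes led at 0.73, 0.64 and 0.54. For vmhc they were TNNT2, troponin T of the thin filament, at 0.51, MYBPC3, the cardiac myosin-binding protein C, at 0.48 and the tropomyosin tpm4a at 0.44. MYBPC3 also led both titins, at 0.26 and 0.28, where sparse counts hold r down, followed by DES, the intermediate filament protein desmin, at 0.25 for ENSDARG00000000563 and by ENSDARG00000079230, which carries no name here, at 0.26 for ENSDARG00000028213. ACADVL, an enzyme of fatty acid oxidation, came last for both at 0.24. Single plates varied, with r of myl7 and GAPDH from 0.33 to 0.87. Leaving out deep cells and cells rich in other markers moved the early r of myl7 and vmhc, as given above. Whether the leading genes stay the same without such cells, or after thinning, was not tested. The difference between the lists is therefore a description of these cells only.

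These similar genes were also measured between times. On the log2 scale actc1a rose by 2.52 ± 0.39 between 7 and 1 dpci (edgeR adjusted p = 0.00946), GAPDH with 1.48 (edgeR adjusted p = 0.0140) and AK1 with 1.26 (edgeR adjusted p = 0.0300). TNNT2 rose by 1.25 (edgeR adjusted p = 0.0402) and tpm4a by 1.199 (edgeR adjusted p = 0.0226). ACADVL at 1.41 (edgeR adjusted p = 0.0723), DES at 0.15 (edgeR adjusted p = 0.846) and ENSDARG00000079230 at -0.08 (edgeR adjusted p = 0.932) were not called. With spike-in scaling actc1a stayed higher at 0.79, whereas GAPDH (-0.19), AK1 (-0.40), TNNT2 (-0.44) and tpm4a (-0.45) turned. Against 3 dpci actc1a (2.47, edgeR adjusted p = 0.0235) and GAPDH (1.32, edgeR adjusted p = 0.0430) were called, while AK1 (edgeR adjusted p = 0.122), TNNT2 (edgeR adjusted p = 0.217) and tpm4a (edgeR adjusted p = 0.195) were not.

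Other thick filament genes were taken from a fixed list of 51 gene IDs, of which 35 passed the filter on low values. Between 7 and 1 dpci, 4 were called higher, 2 lower and 29 not, and the median log2 fold change was 0.64, beside -0.13 for all genes tested and 0.97 for the 5 members. Between 7 and 3 dpci, 1 was called higher, 1 lower and 33 not, with medians of 0.31, -0.09 and 0.81. Beside these counts stand the 7.49% and 1.87% of all genes called against 1 and against 3 dpci. By kind, 3 of the 5 light chain rows tested were called higher against 1 dpci, of which myl13 passed the filter only through its 7 dpci values. None of the 7 heavy chain rows, the 5 myosin-binding proteins and kinases or the 7 titin partners and ligases was called by edgeR in either comparison, and a count of 0 among so few rows says nothing against those shares.

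Both rows named MYL9, a regulatory light chain of smooth muscle and non-muscle myosin, rose. The row ENSDARG00000008030 was at 892 CPM at 1 dpci, 1109 CPM at 3 dpci and 2811, 3332 and 2783 CPM at 7 dpci, a log2 fold change of 1.74 ± 0.28 against 1 dpci (edgeR adjusted p = 0.0106) and 1.42 ± 0.28 against 3 dpci (edgeR adjusted p = 0.0442). The row ENSDARG00000038123 was at 457, 920 and 2457, 1499 and 1764 CPM, with 2.06 ± 0.37 against 1 dpci (edgeR adjusted p = 0.0168). With spike-in scaling they had 0.11 and 0.55 against 1 dpci, and 0.071 and -0.18 against 3 dpci. The 6 IDs of the smooth muscle marker list took 0.0432% of UMIs at 1 dpci, 0.0263% at 3 dpci and 0.0977%, 0.0207% and 0.0325% at 7 dpci, and their part in the MYL9 result was not tested. The light chain row myl13 had no UMI on either earlier plate and 28.2, 36.7 and 56.8 CPM at 7 dpci, at least 21.7-fold higher than the 1.87 CPM that 3 UMIs on the 1 dpci plate would have given. It entered the genes tested only because it was high at 7 dpci, so its call is no separate support for a rise. FHL2 (ENSDARG00000042018), a LIM-domain protein that binds titin, was at 3.11, 12.6 and 48.3, 77.1 and 60.6 CPM, with 4.26 ± 0.89 against 1 dpci (edgeR adjusted p = 0.0269). FHL2 too had few UMIs on the earlier plates, so it passed the filter mainly through the 7 dpci plates.

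Both rows called lower were chaperones, and their direction held under every scaling. hsp90aa1.1, which in zebrafish muscle helps myosin heads to fold, was at 451 CPM at 1 dpci, 618 CPM at 3 dpci and 52.3, 75.2 and 114 CPM at 7 dpci. It fell by 2.46 on the log2 scale against 1 dpci (SE 0.43, edgeR adjusted p = 0.0141) and by 2.91 against 3 dpci (SE 0.42, edgeR adjusted p = 0.0191). A UMI of it was found in 48.8% and 45.5% of cells on the earlier plates and in 2.37%, 5.65% and 8.89% at 7 dpci. These shares are not thinned, and the share of all genes with that order was not computed. A cell held a median of 838 and 711.5 genes on the earlier plates against 301, 507.5 and 467 at 7 dpci. HSP90AA1 (ENSDARG00000024746), a close copy that may share reads with it, was at 911, 805 and 193, 134 and 32.2 CPM and fell by 2.97 against 1 dpci (SE 0.65, edgeR adjusted p = 0.0308). UNC45B, the co-chaperone dedicated to myosin, was at 125, 273 and 109, 67.9 and 71.9 CPM and was not called (edgeR adjusted p = 0.514 and 0.0954); it was named after its values were seen.

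The other abundant partners were not called. MYBPC3, which sits on the thick filament and slows the motor, was at 1899 CPM at 1 dpci, 3563 CPM at 3 dpci and 3185, 4385 and 4688 CPM at 7 dpci, with 1.11 ± 0.30 against 1 dpci (edgeR adjusted p = 0.0588) and 0.20 against 3 dpci. ckma, a muscle creatine kinase, was at 4072, 4512 and 5015, 6593 and 7344 CPM (0.63 against 1 dpci, edgeR adjusted p = 0.218). actn2b, an alpha-actinin of the Z-disc where titin is anchored, was at 3368, 4896 and 3889, 5835 and 6034 CPM (0.64, edgeR adjusted p = 0.257). HSP90AB1 (0.32, edgeR adjusted p = 0.607), the titin cap tcap (0.07, edgeR adjusted p = 0.934) and the Z-disc gene ldb3a (0.86, edgeR adjusted p = 0.217) were likewise not called.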

How the data were processed

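Per the labels, cells sorted on nppa:mCitrine were processed by SORT-seq (CEL-Seq2), and per the study's methods reads were mapped to the Zv9 genome. BWA 0.6.2 stands in the submitters' processing notes with no role, and the annotation is not given in the sources used here. The deposited tables hold expected counts that the authors derived from UMIs corrected for barcode collisions (4096 barcodes of 6 bases). Undoing that correction gave whole numbers, within 0.02, for 100% of values.

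Here ERCC rows and 15 mitochondrial rows were left out, wells with at least 500 UMIs were kept (a count close to the study's own), UMIs were summed over each plate and rounded, and genes averaging 10 CPM or more were tested in 1 fit of 5 plates and 3 groups (edgeR 4.0.16, R 4.3.3; adjusted p under 0.05, two-sided). No doublet caller was run. The study's sort used gates meant to remove doublets, and whether the deepest wells held more than 1 cell was not tested. Plates of 7 dpci differed beyond sampling noise (chi-square per degree of freedom 3.92 to 7.67). Intervals cover counting error only. Each SE beside an edgeR change is the size of the log2 fold change divided by the square root of the F statistic. It is derived from the test and is not an SE estimated by the fit. All plates use the same well barcodes, and the run named for each library differed between the earlier plates and those of 7 dpci, so run and time cannot be told apart. Alternatives were DESeq2 1.42.0, other scalings, filters and cell selections, and leaving out each plate of 7 dpci. Genes were named by rule: the 5 members, called genes of the thick filament list or otherwise its 6 most abundant, and the 3 genes most like each member. Members and lists were chosen with earlier results of these data known. Tests were run on simulated data first.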

Additional observations from a re-analysis of the deposited data

Results flagged for a closer look

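The 745 wells with under 500 UMIs entered no comparison, yet held the thick filament transcripts. myl7 took 9.47% of the UMIs of these wells, cmlc1 3.33%, vmhc 0.827%, titin ENSDARG00000000563 0.0597% and titin ENSDARG00000028213 0.122%. The shares over the 1175 cells were 5.52%, 2.91%, 0.969%, 0.0624% and 0.113%, so the wells were higher in myl7 and differed less in the other genes, with all plates pooled. A myl7 UMI was found in 95.6% of the wells under 500 UMIs and a vmhc UMI in 54.6%. Whether they hold damaged cells or free RNA was not tested.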

How the results depend on the processing

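No paired analysis was possible because the labels number only the plates of 7 dpci, and the 1 and 3 dpci groups have 1 unnumbered plate each. Of the values that answer a comparison, 148 alternatives were labelled as unchanged. For a gene this meant the same direction and side of the threshold, and for a count a move of at most 1.5 times. Of the rest, 12 lost a call, 4 gained one, 16 changed sign and 32 counts moved by over 1.5 times. The cause was not tested.

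Genes called between 7 and 1 dpci (421) were 888 with ERCC totals, 697 with no filter, 249 with a cell minimum of 1000 UMIs, 122 without cells rich in other markers, 718 without the deepest cell of each plate, and 0 to 1324 when each 7 dpci plate was left out. Between 7 and 3 dpci (105) they were 201 with DESeq2, 311 with no filter, 55 at 1000 UMIs, 294 without cells above 3 times the median, 28 without other-marker cells, 174 thinned, 224 without the deepest cells, and 0 to 790 leaving out a plate. Other thick filament genes called were 3 with ERCC totals, 10 with no filter and 0 to 20 leaving out a plate against 1 dpci (6). Against 3 dpci (2) they were 5 with DESeq2, without deep cells or thinned, 7 with no filter, 4 without the deepest cells, 1 with ERCC totals, at 1000 UMIs, with mitochondrial genes or without other-marker cells, and 0 to 12 leaving out a plate. The share of calls that were higher was 37.3% and 34.3% in the 2 comparisons, 55.8% and 59.2% with DESeq2, 8.97% and 9.17% with library totals, 0.563% and 1.32% with ERCC totals, 54.5% and 51.0% without deep cells and 21.7% and 17.4% with no filter.

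Log2 fold changes against 1 dpci with ERCC totals were 0.39 for myl7, 0.29 for cmlc1 and -0.72 for vmhc, and against 3 dpci 0.12, -0.075 and -0.61, with -0.84 for titin ENSDARG00000000563 and -0.76 for titin ENSDARG00000028213. With library totals those against 3 dpci were 0.84, 0.71, 0.19, -0.25 and -0.16 in the same order, and myl7 and cmlc1 lost their calls. cmlc1 against 3 dpci also lost its call at 1000 UMIs (1.27), with mitochondrial genes (1.31) and without other-marker cells (1.03). The titins against 3 dpci were -0.51 and -0.17 without deep cells, -0.50 and -0.78 thinned, and -0.23 and -0.067 without the deepest cells. Against 1 dpci they were 0.25 and 0.018 without the deepest cells, and titin ENSDARG00000028213 fell by 0.97 when thinned (edgeR adjusted p = 0.0377).

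Leaving out each 7 dpci plate gave, against 1 dpci, 2.04 to 2.13 for myl7, 1.93 to 2.22 for cmlc1, 0.90 to 1.27 for vmhc, -0.67 to -0.04 for titin ENSDARG00000000563 and -0.72 to -0.14 for titin ENSDARG00000028213. Against 3 dpci the ranges were 1.44 to 1.53, 1.24 to 1.53, 0.68 to 1.06, -0.039 to 0.59 and 0.08 to 0.66. Depth limits the titins, with 199 to 261 UMIs of ENSDARG00000000563 on a 7 dpci plate, of which 155 of 219 on plate 1 lay in 1 cell.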

Other observations

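The row myh6 (ENSDARG00000090637), an atrial-type heavy chain, was named after its values were seen. Its UMIs numbered 0 on the 1 dpci plate, 1 on the 3 dpci plate and 1, 459 and 15 on those of 7 dpci. On plate 2 a single cell held 376 of the 459, and 3 cells held 92.6%. For the row MYH6 (ENSDARG00000079564) the plates held 360, 166 and 195, 41 and 49 in the same order, of which 185 on plate 1 of 7 dpci lay in 1 cell. Neither was called between times (edgeR adjusted p = 0.129 and 0.879 against 1 dpci).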
